A study of Homo sapiens with 20 samples.

Results

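Translation initiation factors were taken as the genes whose symbol starts with EIF and a digit from 1 to 6, leaving out the eIF2 kinases (symbols starting with EIF2AK), among array probe sets that carry 1 gene symbol. They were 52 of 33268 probe sets and 46 of 18416 genes, and all 46 were among the 15850 genes bright enough to be tested. The samples came from 5 cell lines of classical Hodgkin lymphoma, namely L428, KM-H2, SUP-HD1, UHO-1 and L1236, each treated for 24 h with 4-hydroxytamoxifen (4-OHT) or with the ethanol vehicle, with 2 arrays in each of the 10 groups. All 10 groups, vehicle included, stably carried FOXO1(3A)ER. In this fusion a FOXO1 mutant that is always active, a transcription factor, is joined to the hormone-binding part of the estrogen receptor, which 4-OHT releases. The labels give 200 µM 4-OHT, in a text that names cells with another fusion, KLF4ER, so the dose is given as labelled. No array used here holds cells that lack the fusion, and what 4-OHT does by itself therefore cannot be told apart from what the fusion does. The labels say that the experiment was done 2 times and name no separate cultures, so the p-values rest on array-to-array spread, which may be technical. In whole-culture RNA, fewer cells of a type and less RNA per cell cannot be told apart.

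Initiation factors bring the ribosome, the initiator tRNA and the start codon of an mRNA together. eIF2 delivers the initiator tRNA and eIF2B recharges it with GTP, eIF3 is the scaffold on the small ribosomal subunit, and eIF4F (the cap-binding eIF4E, the scaffold eIF4G and the helicase eIF4A) recruits the mRNA. The eIF4E-binding proteins hold eIF4E away from eIF4G until the kinase mTORC1 phosphorylates them. In B cells, PI3K and AKT signalling keeps FOXO1 out of the nucleus and drives mTORC1, and MYC is known to raise many genes of the translation machinery.

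All values are log2 signals from the array, and a change is the 4-OHT mean minus the vehicle mean of the same line, with its standard error from the limma fit over all 20 arrays. A gene was called when its limma p-value, adjusted over the 15850 genes, was under 0.05. The arrays fell into 2 normalization sets, KM-H2 with L428 (array medians 5.67 to 5.71) and the other 3 lines (6.26 to 6.41), so levels are compared between lines only within a set. Of 9 Hodgkin and B lineage markers, 8 were above the floor of 5 on all 20 arrays, and MS4A1, which encodes CD20, was above it on none. Within its set, L1236 with vehicle stood far below UHO-1 and SUP-HD1 on IRF4 (6.31, against 12.2 and 12.12), TRAF1 (5.36, against 10.17 and 9.6) and CD40 (5.73, against 9.64 and 8.96). CCL17, FSCN1 and PAX5 were also lower there. CD79A went the other way (9.33, against 6.11 and 6.63), and TNFRSF8 (7.76) lay between UHO-1 (11.07) and SUP-HD1 (7.14). The arrays labelled L1236 also carried all 6 T cell markers: their summed signal was 12667 to 13411 with 4-OHT and 13994 to 14074 with vehicle in L1236, against 156 to 389 on the arrays of the other 4 lines, and the averages of the 15 factors described array by array are therefore also given without L1236. In KM-H2 the summed signal of 6 stromal markers was 4605 to 5461 with 4-OHT and 333 to 345 with vehicle, through LUM (12.18 and 3.41) and DCN (6.76 and 3.37), while COL1A1 averaged 6.82 with 4-OHT and 7.44 with vehicle. The summed Hodgkin and B lineage markers were higher with 4-OHT in L1236 (4149 to 4164, against 1476 to 1522), where CD79A was the 1 of 8 tested markers called (11.7, against 9.33). The same sum was lower with 4-OHT in L428 (5626 to 6296, against 8911 to 9437), KM-H2 (4276 to 4636, against 5295 to 5437) and UHO-1 (10569 to 11103, against 11945 to 12219). In SUP-HD1 it was 8921 to 9079 with 4-OHT and 8820 to 8898 with vehicle. The sum of 6 myeloid markers in L1236 was 462 to 484 with 4-OHT and 220 to 245 with vehicle, through LYZ (7.93 and 4.27). That sum was lower with 4-OHT in KM-H2 (177 to 198, against 287 to 290) and UHO-1 (258 to 277, against 322 to 342). It was also lower in SUP-HD1 (329 to 338, against 372 to 396), and in L428 it was 164 to 167 with 4-OHT and 156 with vehicle. The part of these genes in the results below was not tested. FBXO32, a ubiquitin ligase gene and known FOXO target, rose in KM-H2 (5.94), L428 (3.89), UHO-1 (0.74) and SUP-HD1 (0.51), and its change in L1236 was 0.12 ± 0.08 (limma adjusted p = 0.384). CDKN1B, another FOXO target, rose in all 5 lines and by 0.77 on average.

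Averaged over the 5 lines, 6 of the 46 factors rose and 17 fell, which is 50% called, against 38.6% of all genes tested. The share that fell was 37%, against 21.2% of all genes, and the share that rose was 13%, against 17.4%. The median change of the 46 was -0.056, and that of all genes tested was -0.025. The changes were small: apart from EIF4E3, which rose by 0.74 ± 0.03, called averages lay between -0.33 and 0.13 on the log2 scale. The factors that fell on average included subunits of eIF2, eIF2B and eIF3, the helicase cofactor EIF4B, the subunit-joining GTPase EIF5B and the large-subunit factor EIF6. The average treats the 20 arrays as independent: with the 5 lines as the replicates, no factor passed the limma test after adjustment, 6 passed at an unadjusted p under 0.05, and 2 of all genes passed after adjustment.

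In all 5 lines the 4-OHT mean was lower for 10 factors that were also called on average, namely EIF2A, EIF2B1, EIF2B3, EIF3B, EIF3G, EIF3K, EIF3M, EIF4B (on its brightest probe set), EIF5B and EIF6, and it was higher for 2, EIF1 and EIF4E3. Among all genes tested, 8.19% were lower in this way and 6.09% higher. Without L1236 the average called 6 factors higher and 14 lower. Leaving out KM-H2 gave 4 higher and 19 lower, and leaving out UHO-1 gave 3 higher and 18 lower. The share of all genes called was not counted in these fits with a line left out.

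**Figure D1:**
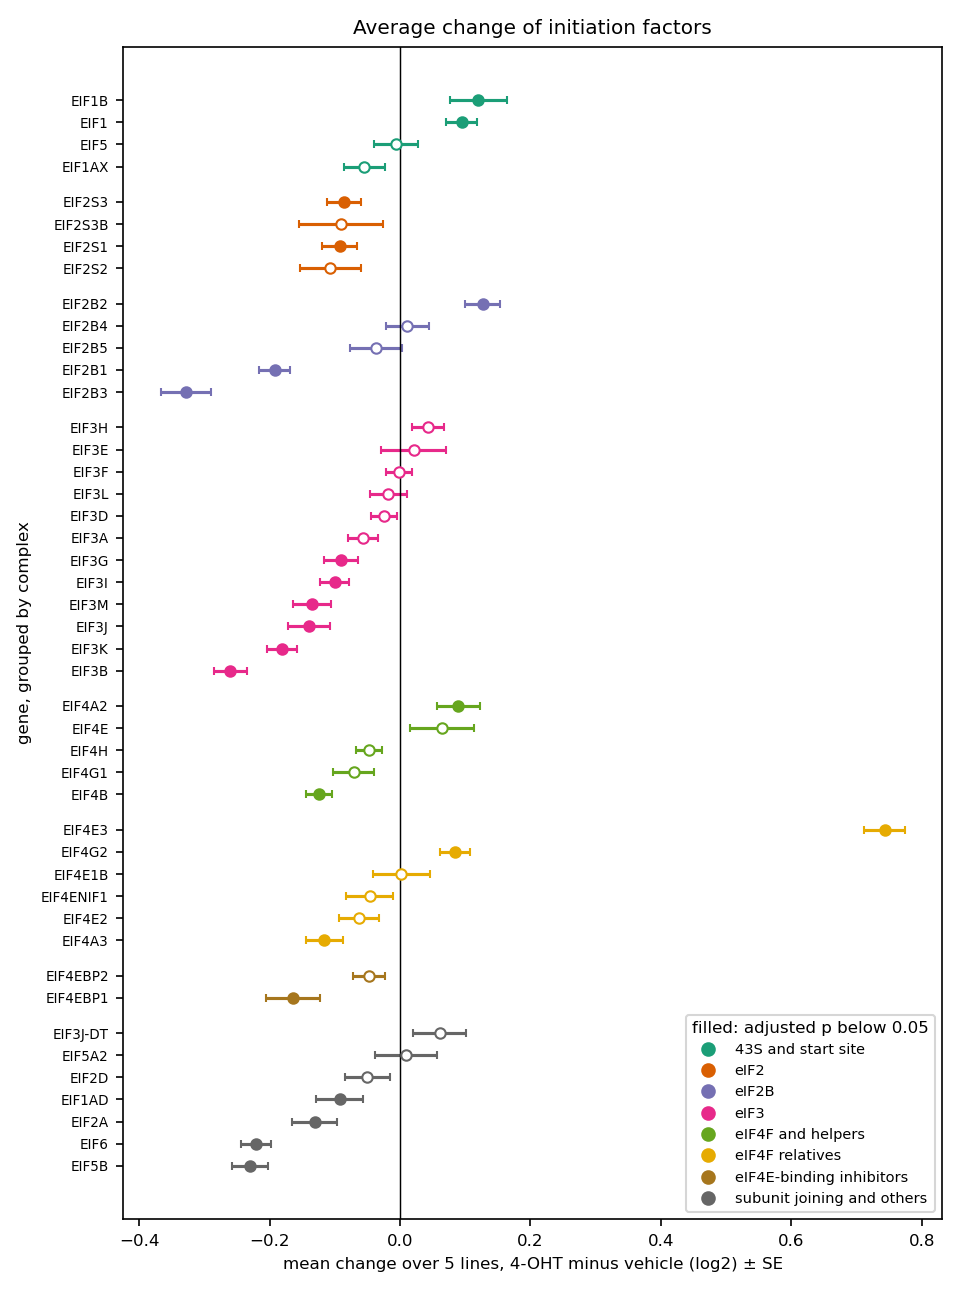
Average change of each factor over the 5 lines, 4-OHT minus vehicle in log2 units with its standard error, grouped by complex, for all factors but EIF1AY. Filled points passed the limma test at an adjusted p under 0.05. EIF4E3 lies at 0.74, far to the right of every other factor, and EIF2B3 lies lowest at -0.33.

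The counts differed by line. In KM-H2, 5 factors rose and 7 fell, 26.1% of the 46, against 22.3% of all genes. In L428, 4 rose and 14 fell, 39.1%, against 29.5% of all genes. In L1236, 1 rose and 21 fell, 47.8%, against 23.1% of all genes, and the share that fell, 45.7%, stood beside 14.9% of all genes. In UHO-1, 6 rose and 3 fell, 19.6%, against 24.5% of all genes. In SUP-HD1, limma called none of the 46 after adjustment and 6 at an unadjusted p under 0.05, where 6.03% of all genes were called, 3.68% higher and 2.35% lower.

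The UHO-1 split depended on the fit, with 8 higher and 8 lower after cyclic loess, another scaling of the arrays, and 4 higher and 0 lower without the intensity trend. Without the first or the second 4-OHT array of UHO-1 it was 4 higher and 1 lower, and without the first vehicle array 5 higher and 0 lower. The L1236 count was 1 higher and 13 lower without the second 4-OHT array of L1236. After cyclic loess the L1236 falls of EIF2S2, EIF3D, EIF3E, EIF3G, EIF4B and EIF4H were not called (limma adjusted p 0.0549 to 0.384), and EIF4EBP2 rose (0.0178). Without the intensity trend these same falls and that of EIF5 were not called (limma adjusted p 0.0591 to 0.166). Median centring, a further scaling, added falls of EIF1AD, EIF2A, EIF2B2 and EIF4E2 in L1236 (limma adjusted p 0.0311 to 0.0419). The KM-H2 count was 8 without the first 4-OHT array of KM-H2.

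An F test in limma asked directly whether the change differed between lines, and 24 of the 46 factors passed it, against 42.7% of all genes tested. These were 3 of the 5 start-site factors, 1 of 4 for eIF2, 3 of 5 for eIF2B, 5 of 12 for eIF3, 2 of 5 for eIF4F and helpers, 4 of 6 relatives of eIF4F, both inhibitors and 4 of 7 others. Of the 46, 4 were called in opposite directions in different lines, EIF1AX, EIF5, EIF3E and EIF4EBP1. No line called 12 of the 46. The shares of all genes called in opposite directions, or in no line, were not counted, so neither count can be set against the array as a whole. Without L1236, 16 factors passed the F test, and the share of all genes that passed in that fit was not counted.

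**Figure D2:**
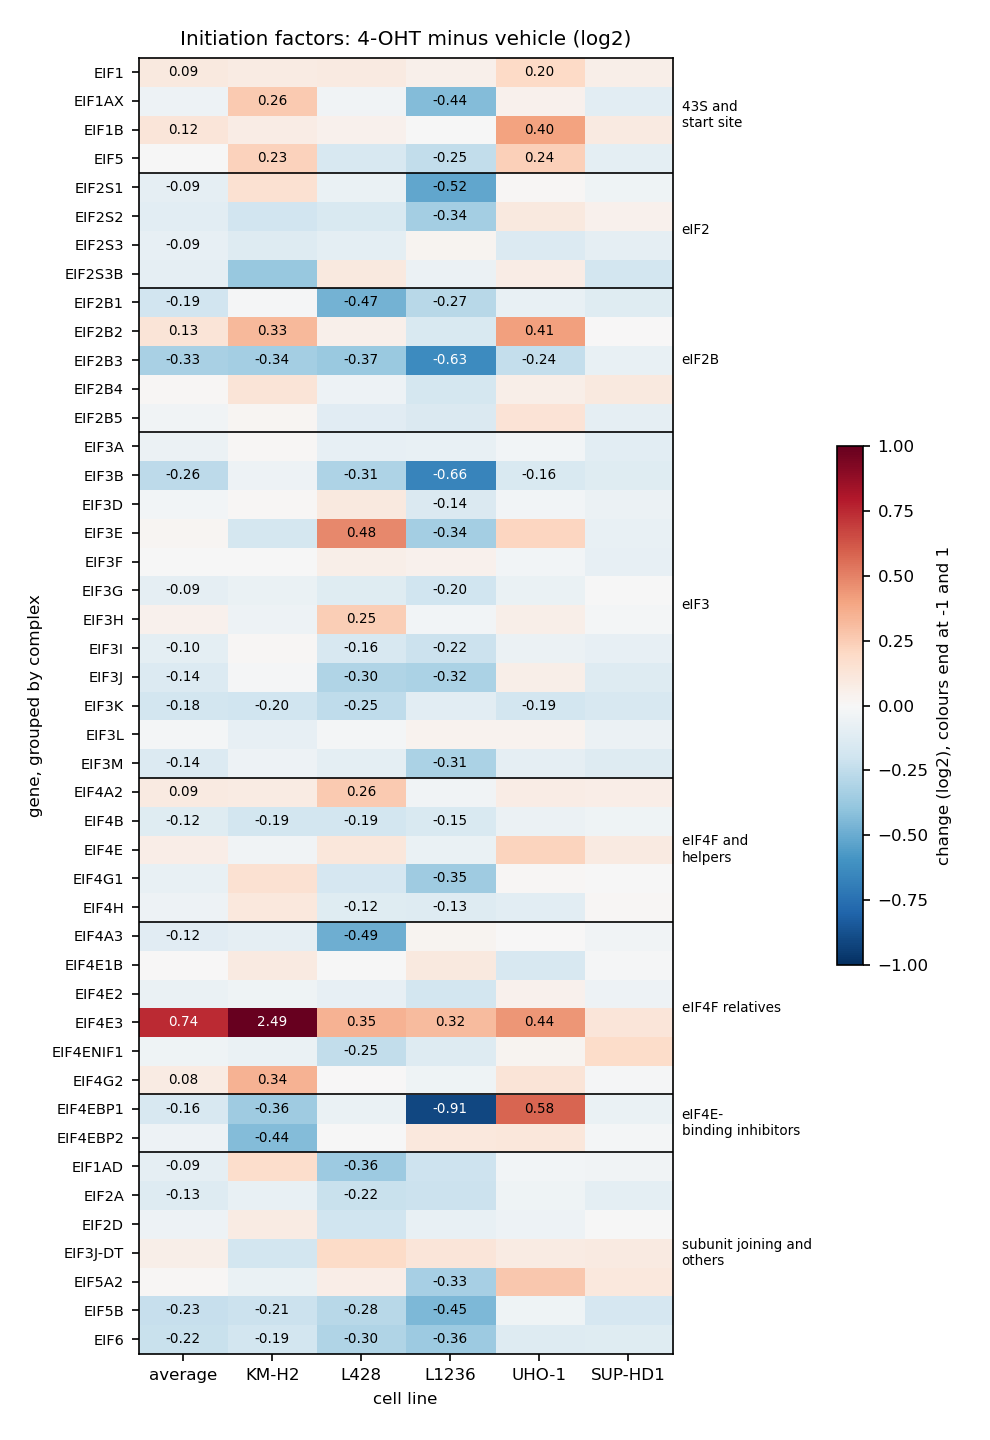
Change of the factors, without EIF1AY, in each line and on average, 4-OHT minus vehicle in log2 units, grouped by complex. Red is higher and blue lower with 4-OHT, colours end at -1 and 1, and a printed value marks a change that passed the limma test. The L1236 column is mostly blue, the UHO-1 column holds both colours, and the SUP-HD1 column holds no called change.

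Promoters of the factors were set beside the changes, because MYC, with its partner MAX, binds the sequence CACGTG and FOXO factors bind sequences with the core GTAAACA. MYC itself fell in all 5 lines, most in KM-H2 (-2.44) and L1236 (-1.37), then L428 (-0.61), SUP-HD1 (-0.43) and UHO-1 (-0.21). RefSeq promoters (GRCh38.p14, the 250 bases before the annotated start) were at hand for 39 of the 46 factors. For each gene only the first listed start was used. Whether the cells use that start was not tested, for EIF4E3 as for the others, so a window without a motif leaves other starts unexamined. CACGTG, which reads the same on both strands, was in 10 of the 39 (25.6%), against 6.49% of 27305 promoters and 8.31% of the 12377 promoters of tested genes. The 10 were those of EIF1B, EIF2B3, EIF3F, EIF3K, EIF4A3, EIF4B, EIF4E, EIF4G1, EIF4H and EIF5A2. Of these 10 genes, 1 rose and 4 fell on average, and of the 29 without the letters, 5 rose and 11 fell. GTAAACA, searched on both strands, was in 1 of the 39 (2.56%), that of EIF3D, against 2.98% of all promoters and 1.92% of those of tested genes. TTGTTTAC, on both strands, which overlaps GTAAACA read on the other strand, was in 0 of the 39, against 0.831% of all promoters and 0.509% of those of tested genes. A match describes letters in the window and no bound site. Of the factors lower in all 5 lines and called on average, 9 had a promoter at hand, and 3 of these 9 hold CACGTG (EIF2B3, EIF3K, EIF4B). The promoters below are those of these 3, of the cap-complex genes with 2 copies (EIF4E, EIF4G1) and of the factor with the largest rise (EIF4E3). Each is written 5′ to 3′ on the gene's strand, with CACGTG in capitals.
EIF2B3, chr1:44986596-44986845, minus strand: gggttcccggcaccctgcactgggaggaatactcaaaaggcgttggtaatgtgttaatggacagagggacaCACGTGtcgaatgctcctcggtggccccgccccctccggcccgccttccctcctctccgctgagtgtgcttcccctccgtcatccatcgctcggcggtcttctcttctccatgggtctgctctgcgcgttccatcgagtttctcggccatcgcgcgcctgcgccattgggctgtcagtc
EIF3K, chr19:38618938-38619187, plus strand: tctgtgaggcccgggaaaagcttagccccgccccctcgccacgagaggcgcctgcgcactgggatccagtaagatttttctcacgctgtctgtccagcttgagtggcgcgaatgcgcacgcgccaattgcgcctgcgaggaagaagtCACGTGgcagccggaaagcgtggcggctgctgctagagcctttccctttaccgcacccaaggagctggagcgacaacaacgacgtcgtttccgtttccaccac
EIF4B, chr12:53006206-53006455, plus strand: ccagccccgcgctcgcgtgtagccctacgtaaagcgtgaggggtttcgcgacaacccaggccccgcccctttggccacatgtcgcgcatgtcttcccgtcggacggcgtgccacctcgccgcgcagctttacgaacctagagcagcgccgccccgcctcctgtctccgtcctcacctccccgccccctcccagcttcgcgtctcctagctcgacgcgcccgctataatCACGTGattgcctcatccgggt
EIF4E, chr4:98929134-98929383, minus strand: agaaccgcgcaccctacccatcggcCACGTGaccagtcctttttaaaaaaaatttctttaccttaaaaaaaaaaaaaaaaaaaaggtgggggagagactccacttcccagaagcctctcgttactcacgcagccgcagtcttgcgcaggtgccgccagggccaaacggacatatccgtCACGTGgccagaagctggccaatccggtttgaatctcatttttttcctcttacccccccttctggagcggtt
EIF4G1, chr3:184314356-184314605, plus strand: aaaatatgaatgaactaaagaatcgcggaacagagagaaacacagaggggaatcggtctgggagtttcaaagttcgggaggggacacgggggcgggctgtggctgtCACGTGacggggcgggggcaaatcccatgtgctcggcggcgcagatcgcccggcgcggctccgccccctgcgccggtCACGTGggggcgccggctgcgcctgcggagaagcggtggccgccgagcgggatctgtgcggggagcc
EIF4E3, chr3:71754774-71755023, minus strand: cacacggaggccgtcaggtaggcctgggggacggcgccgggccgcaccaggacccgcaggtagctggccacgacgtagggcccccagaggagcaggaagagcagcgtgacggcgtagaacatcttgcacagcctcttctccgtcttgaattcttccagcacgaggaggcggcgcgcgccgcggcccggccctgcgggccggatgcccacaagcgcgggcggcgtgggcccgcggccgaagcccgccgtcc

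The start-site factors bind the small subunit and guard the choice of start codon. Of 5, 2 rose on average, EIF1 and its near-identical copy EIF1B, and the median change was -0.007. Average counts by complex, here and below, stand beside the 17.4% of all genes that rose and the 21.2% that fell. The median of all genes was -0.025. With so few genes in a complex these counts are descriptions only. EIF1 and EIF1B are close copies whose signals may overlap, and the same holds for EIF1AX and its Y-linked copy EIF1AY, whose levels are not given. EIF1 read 12.46 and 12.39 with 4-OHT against 12.30 and 12.39 with vehicle in KM-H2, and 12.83 and 12.84 with 4-OHT against 12.72 and 12.79 with vehicle in L428. EIF1 in the second set read 12.45 and 12.29 with 4-OHT against 12.23 and 12.40 with vehicle in L1236, and 12.73 and 12.73 with 4-OHT against 12.55 and 12.52 with vehicle in UHO-1. EIF1 stood at 12.49 and 12.55 with 4-OHT against 12.48 and 12.45 with vehicle in SUP-HD1. The 4-OHT arrays lay above both vehicle arrays in every line but L1236, where they overlapped, and in KM-H2 and SUP-HD1 the gap was under 0.01. EIF1 rose by 0.09 ± 0.02 on average (limma adjusted p = 0.00316) and by 0.20 ± 0.05 in UHO-1 (limma adjusted p = 0.0122). Without L1236 the average was 0.11 (limma adjusted p = 0.000528), without UHO-1 it was 0.07 (0.0691), and the UHO-1 call was lost without either of its 4-OHT arrays or its second vehicle array (limma adjusted p up to 0.0893).

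EIF1B stood at 7.02 and 6.97 with 4-OHT against 6.90 and 6.95 with vehicle in KM-H2, and 7.11 and 7.14 with 4-OHT against 7.14 and 7.03 with vehicle in L428. EIF1B in the second set stood at 8.35 and 8.23 with 4-OHT against 8.25 and 8.35 with vehicle in L1236, and 8.68 and 8.68 with 4-OHT against 8.26 and 8.29 with vehicle in UHO-1. EIF1B measured 8.74 and 8.91 with 4-OHT against 8.92 and 8.55 with vehicle in SUP-HD1. The UHO-1 arrays with 4-OHT lay well above those with vehicle, KM-H2 showed a small gap the same way, and the other 3 lines overlapped. EIF1B rose in UHO-1 by 0.40 ± 0.10 (limma adjusted p = 0.006), and its average of 0.12 ± 0.04 (limma adjusted p = 0.036) was 0.15 without L1236 (0.0187) and 0.05 without UHO-1 (0.543). That average also lost its call with a replicate block (0.0684), after median centring (0.0956) and without any of 11 single arrays. EIF1AX, which helps the subunit scan for the start codon, rose in KM-H2 (0.26) and fell in L1236 (-0.44), and its F test had an adjusted p of 0.000124 in limma. Its rise in KM-H2 was not called without the first 4-OHT array (limma adjusted p = 0.21) or the first vehicle array of KM-H2 (0.124). EIF5, which triggers GTP hydrolysis on eIF2 at the start codon, rose in KM-H2 (0.23) and UHO-1 (0.24) and fell in L1236 (-0.25). Each of these EIF5 calls was lost without an array of its own line, with limma adjusted p up to 0.527 in KM-H2, 0.14 in UHO-1 and 0.279 in L1236.

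eIF2 carries the initiator tRNA, and 2 of its 4 genes fell on average, EIF2S1 (the alpha subunit that the stress kinases phosphorylate) and EIF2S3 (gamma). The median change of the 4 was -0.092. EIF2S1 measured 11.09 and 10.99 with 4-OHT against 10.88 and 10.89 with vehicle in KM-H2, and 10.38 and 10.40 with 4-OHT against 10.47 and 10.45 with vehicle in L428. EIF2S1 in the second set measured 10.26 and 10.19 with 4-OHT against 10.74 and 10.75 with vehicle in L1236, and 10.84 and 10.87 with 4-OHT against 10.81 and 10.88 with vehicle in UHO-1. EIF2S1 gave 10.86 and 10.87 with 4-OHT against 11.02 and 10.80 with vehicle in SUP-HD1. Only the L1236 arrays with 4-OHT lay far below their vehicle arrays; L428 showed a small gap the same way, KM-H2 the opposite one, and the last 2 lines overlapped. EIF2S1 fell in L1236 by 0.52 ± 0.06 on the log2 scale (limma adjusted p = 6.08e-07), and its change differed between lines (F test, limma adjusted p = 1.39e-05). Its average of -0.09 ± 0.03 (limma adjusted p = 0.00767) was 0.01 without L1236 (limma adjusted p = 0.744).

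EIF2S2 gave 9.05 and 8.75 with 4-OHT against 9.23 and 8.95 with vehicle in KM-H2, and 8.97 and 8.71 with 4-OHT against 8.93 and 9.06 with vehicle in L428. EIF2S2 in the second set gave 9.86 and 9.58 with 4-OHT against 9.99 and 10.13 with vehicle in L1236, and 10.09 and 10.08 with 4-OHT against 10.01 and 9.96 with vehicle in UHO-1. EIF2S2 showed 10.06 and 10.09 with 4-OHT against 10.07 and 9.99 with vehicle in SUP-HD1. EIF2S2, the beta subunit, was lower with 4-OHT in L1236 beyond overlap, slightly higher in UHO-1, and overlapping elsewhere. Its fall in L1236 was -0.34 ± 0.10 (limma adjusted p = 0.0201), and it was not called without the second 4-OHT array (0.337) or the second vehicle array (0.176) of L1236. The average, -0.11 ± 0.05, was not called (limma adjusted p = 0.0771), and was -0.05 without L1236 (0.461). EIF2S3 fell by 0.09 ± 0.03 on average (limma adjusted p = 0.0115) and in no single line, and the average was not called without KM-H2 (0.0656) or without UHO-1 (0.0605). EIF2S3B, a near-identical copy of EIF2S3, was called nowhere, and the signals of the copies cannot be kept apart with certainty.

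eIF2B is the exchange factor that reloads eIF2 with GTP. EIF2B1 and EIF2B3 fell on average, EIF2B2 rose, and EIF2B4 (0.01 ± 0.03) and EIF2B5, the catalytic subunit (-0.04 ± 0.04), were not called. EIF2B3 showed 8.09 and 7.99 with 4-OHT against 8.43 and 8.33 with vehicle in KM-H2, and 7.93 and 7.83 with 4-OHT against 8.27 and 8.22 with vehicle in L428. EIF2B3 in the second set showed 8.09 and 8.06 with 4-OHT against 8.68 and 8.73 with vehicle in L1236, and 8.26 and 8.15 with 4-OHT against 8.57 and 8.31 with vehicle in UHO-1. EIF2B3 read 8.49 and 8.37 with 4-OHT against 8.54 and 8.46 with vehicle in SUP-HD1. The 4-OHT arrays lay below both vehicle arrays in KM-H2, L428, L1236 and UHO-1 and overlapped with them in SUP-HD1. EIF2B3, the gamma subunit that pairs with the catalytic one, fell by 0.33 ± 0.04 on average (limma adjusted p = 3.74e-07). It fell most in L1236, by 0.63 ± 0.09 (limma adjusted p = 8.15e-06), then L428 by 0.37 ± 0.09 (0.00199), KM-H2 by 0.34 ± 0.09 (0.00551) and UHO-1 by 0.24 ± 0.09 (0.0496), and its change in SUP-HD1 was -0.07 ± 0.09 (0.796). The KM-H2 call was lost without its second 4-OHT array (limma adjusted p = 0.0701) or its first vehicle array (0.0822), and the UHO-1 call was lost without most single arrays. The F test had a limma adjusted p of 0.0108, and of 0.184 without L1236, where the average was -0.25 (limma adjusted p = 9.6e-05).

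EIF2B1, the alpha subunit of eIF2B, averaged 10.35 with 4-OHT and 10.82 with vehicle in L428. It fell there by 0.47 ± 0.05 (limma adjusted p = 2.95e-07) and in L1236 by 0.27 ± 0.05 (0.000459). EIF2B2, the beta subunit, went the other way, with a rise of 0.41 ± 0.06 in UHO-1 (limma adjusted p = 4.22e-05) and 0.33 ± 0.06 in KM-H2 (0.000273). Its average rise of 0.13 ± 0.03 (limma adjusted p = 0.000652) was not called without KM-H2 (0.08, adjusted p = 0.0774) or without UHO-1 (0.06, adjusted p = 0.167).

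eIF3 is the largest factor, and 12 of its genes were measured on probe sets with 1 symbol. EIF3C, another subunit gene, lies on probe sets with several symbols and is not analysed here. Of the 12, 0 rose and 6 fell on average (EIF3B, EIF3G, EIF3I, EIF3J, EIF3K and EIF3M), with a median of -0.074. By line, 0 rose and 1 fell in KM-H2, 2 rose and 4 fell in L428, 0 rose and 7 fell in L1236, and 0 rose and 2 fell in UHO-1. Over all genes, the share that rose was 10% in KM-H2, 12% in L428, 8.25% in L1236 and 13.4% in UHO-1. The share of all genes that fell was 12.3%, 17.5%, 14.9% and 11.1% in the same order. In SUP-HD1 limma called none of the eIF3 genes, while all 12 means were lower with 4-OHT. Most means leaned lower in SUP-HD1, with 9272 of all 15850 genes and 33 of the 46 factors. EIF3B read 10.07 and 10.10 with 4-OHT against 10.13 and 10.16 with vehicle in KM-H2, and 10.12 and 10.13 with 4-OHT against 10.41 and 10.45 with vehicle in L428. EIF3B in the second set read 8.78 and 8.86 with 4-OHT against 9.45 and 9.51 with vehicle in L1236, and 10.05 and 10.16 with 4-OHT against 10.30 and 10.23 with vehicle in UHO-1. EIF3B stood at 10.43 and 10.40 with 4-OHT against 10.55 and 10.53 with vehicle in SUP-HD1. Both 4-OHT arrays lay below both vehicle arrays in all 5 lines, by a wide gap in L1236 and L428 and a narrow one in KM-H2. EIF3B, a core subunit that holds the complex together, fell by 0.26 ± 0.02 on average (limma adjusted p = 1.47e-08). Its falls were -0.66 ± 0.06 in L1236 (limma adjusted p = 5.73e-09) and -0.31 ± 0.06 in L428 (0.000142). The fall in UHO-1, -0.16 ± 0.06 (0.0439), was lost without the first 4-OHT array of UHO-1 (0.298) or its first vehicle array (0.22), or with a replicate block (0.0716). KM-H2 (-0.05 ± 0.06) and SUP-HD1 (-0.12 ± 0.06) were not called. The average without L1236 was -0.16 (limma adjusted p = 6.01e-05), and the F test, 1.03e-05 with L1236, was 0.0552 without it.

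EIF3K, a peripheral subunit, fell by 0.20 ± 0.05 in KM-H2 (limma adjusted p = 0.00695), 0.25 ± 0.05 in L428 (6e-04) and 0.19 ± 0.05 in UHO-1 (0.0134), and by 0.18 ± 0.02 on average (1.45e-06). Its KM-H2 call was lost without the first 4-OHT array (0.0931) or the first vehicle array of KM-H2 (0.0895), and its UHO-1 call without the second 4-OHT array (0.173) or the first vehicle array of UHO-1 (0.0807). EIF3E, also called INT6, was the subunit with the widest split: it rose in L428 by 0.48 ± 0.11 (limma adjusted p = 0.00166) and fell in L1236 by 0.34 ± 0.11 (0.0287), with an F test at 0.00132. The L1236 fall of EIF3E was not called without the second 4-OHT array (0.239) or the second vehicle array (0.17) of L1236, and without L428 the F test was at 0.0681. EIF3H, another eIF3 subunit, also rose in L428, by 0.25 ± 0.06 (limma adjusted p = 0.00117), and was called in no other line. EIF3G, an RNA-binding subunit, fell in L1236 by 0.20 ± 0.06 (0.0162) and on average by 0.09 ± 0.03 (0.00759), and neither held in every alternative: the average was -0.06 without L1236 (0.0951), and the L1236 fall was lost without its second 4-OHT array (0.177). EIF3I fell in L1236 (-0.22, limma adjusted p = 0.00179) and L428 (-0.16, 0.0171), the last of which was lost without the second 4-OHT array of L428 (0.22). EIF3J, a loosely attached subunit, fell in L1236 (-0.32, 0.00192) and L428 (-0.30, 0.00255), and its average of -0.14 (0.00124) was -0.10 without L428 (0.0504). EIF3M fell in L1236 (-0.31, 0.000936). EIF3A, the largest subunit (-0.06 ± 0.02), EIF3D (-0.02 ± 0.02), EIF3F (0.00 ± 0.02) and EIF3L (-0.02 ± 0.03) were not called on average. EIF3F has copies elsewhere in the genome, and its other probe set averaged -0.10.

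**Figure D3:**
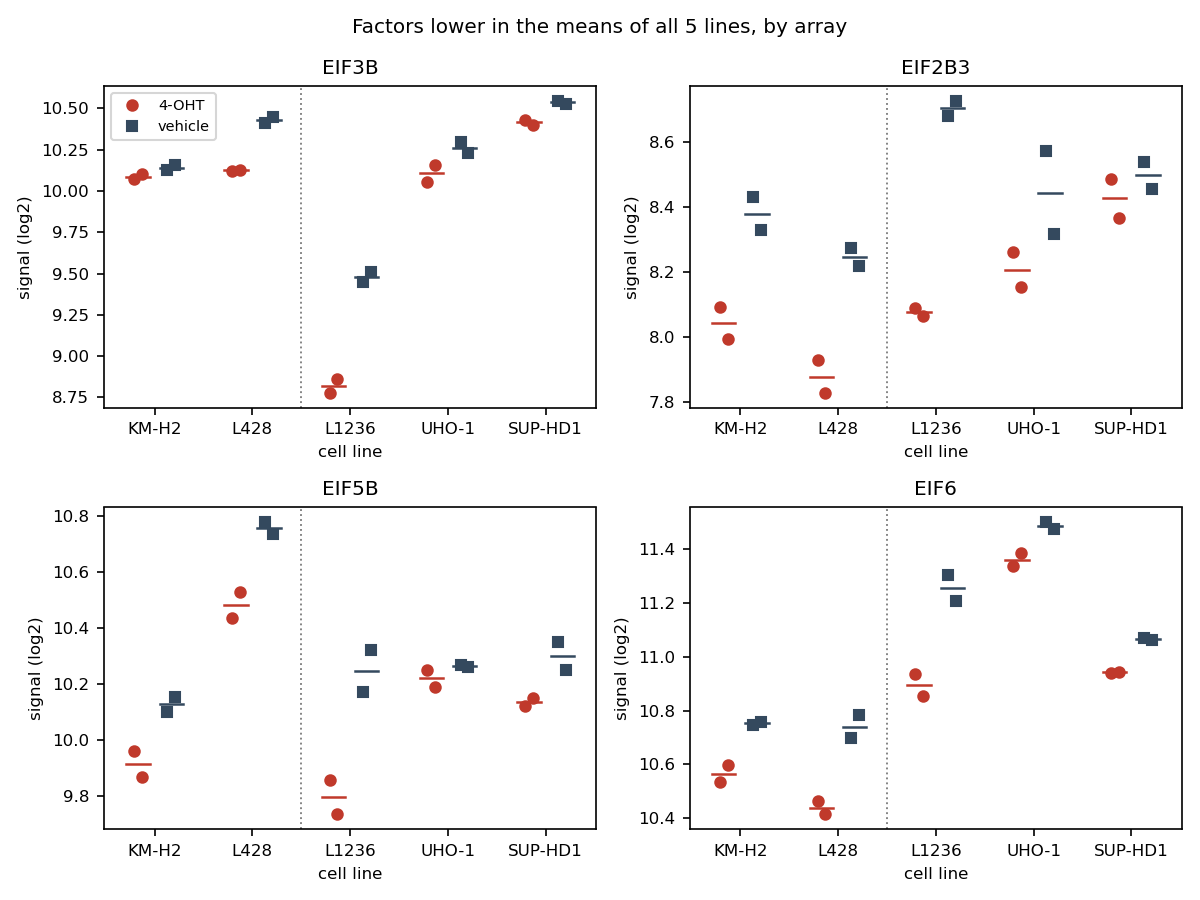
Log2 signal of EIF3B, EIF2B3, EIF5B and EIF6 on each array, with 4-OHT (circles) left of vehicle (squares) in each line, group means as bars and the 2 normalization sets split by a dotted line. For EIF3B, EIF5B and EIF6 both circles lie below both squares in every line, and for EIF2B3 in every line but SUP-HD1. Axes do not start at 0.

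Of eIF4F and its helpers 5 genes were measured on probe sets with 1 symbol, and 1 rose and 1 fell on average, with a median of -0.048. EIF4A1 lies on probe sets with several symbols and EIF4G3 is not analysed here. EIF4E stood at 4.97 and 5.21 with 4-OHT against 5.08 and 5.17 with vehicle in KM-H2, and 4.96 and 5.10 with 4-OHT against 4.86 and 4.98 with vehicle in L428. EIF4E in the second set stood at 5.66 and 5.59 with 4-OHT against 5.63 and 5.75 with vehicle in L1236, and 6.41 and 6.42 with 4-OHT against 6.16 and 6.23 with vehicle in UHO-1. EIF4E measured 6.45 and 6.54 with 4-OHT against 6.39 and 6.42 with vehicle in SUP-HD1. EIF4E, the cap-binding protein, sat close to the floor of 5 in KM-H2 and L428, and 4-OHT and vehicle arrays overlapped in KM-H2, L428 and L1236. The UHO-1 and SUP-HD1 arrays with 4-OHT lay slightly higher. No call was made: the average was 0.06 ± 0.05 (limma adjusted p = 0.334), and 0.10 without L1236 (0.168), and the UHO-1 change 0.22 ± 0.11 (0.145), the last of which was 0.37 after cyclic loess (0.0215).

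EIF4G1 measured 9.98 and 10.02 with 4-OHT against 9.79 and 9.90 with vehicle in KM-H2, and 9.88 and 9.99 with 4-OHT against 10.07 and 10.13 with vehicle in L428. EIF4G1 in the second set measured 9.55 and 9.47 with 4-OHT against 9.77 and 9.96 with vehicle in L1236, and 10.21 and 10.19 with 4-OHT against 10.19 and 10.19 with vehicle in UHO-1. EIF4G1 gave 9.47 and 9.43 with 4-OHT against 9.53 and 9.38 with vehicle in SUP-HD1. EIF4G1, the scaffold, was lower with 4-OHT beyond overlap in L1236 and L428, higher in KM-H2, and overlapping in the other 2 lines. It fell in L1236 by 0.35 ± 0.07 (limma adjusted p = 0.000484), its average of -0.07 ± 0.03 was not called (0.0738) and was 0.00 without L1236 (0.986), and the F test was at 0.002. EIF4A2 gave 10.23 and 10.02 with 4-OHT against 9.98 and 10.11 with vehicle in KM-H2, and 10.83 and 10.99 with 4-OHT against 10.68 and 10.62 with vehicle in L428. EIF4A2 in the second set gave 10.13 and 10.11 with 4-OHT against 10.14 and 10.16 with vehicle in L1236, and 10.59 and 10.79 with 4-OHT against 10.59 and 10.64 with vehicle in UHO-1. EIF4A2 showed 10.87 and 10.89 with 4-OHT against 10.85 and 10.78 with vehicle in SUP-HD1. EIF4A2, an eIF4A helicase, was higher with 4-OHT beyond overlap in L428 and by a narrow gap in SUP-HD1, and lower by a narrow gap in L1236. Its rise in L428 was 0.26 ± 0.07 (limma adjusted p = 0.00789), and was lost without the second 4-OHT array (0.156) or the second vehicle array (0.075) of L428 or when its probe sets were averaged (0.19, adjusted p = 0.188). The average of 0.09 ± 0.03 (limma adjusted p = 0.0331) was 0.12 without L1236 (0.0158) and 0.05 without L428 (0.361). It also lost its call without the intensity trend (0.0906), after median centring (0.101) and without any of 10 single arrays. A second probe set of EIF4A2 gave 0.56 in UHO-1, where the main one gave 0.07.

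EIF4B showed 10.60 and 10.61 with 4-OHT against 10.80 and 10.79 with vehicle in KM-H2, and 11.23 and 11.25 with 4-OHT against 11.43 and 11.42 with vehicle in L428. EIF4B in the second set showed 11.60 and 11.61 with 4-OHT against 11.71 and 11.80 with vehicle in L1236, and 11.98 and 11.99 with 4-OHT against 12.04 and 12.04 with vehicle in UHO-1. EIF4B read 11.38 and 11.44 with 4-OHT against 11.49 and 11.42 with vehicle in SUP-HD1. EIF4B, which stimulates the eIF4A helicase, was lower with 4-OHT beyond overlap in all lines but SUP-HD1. It fell by 0.12 ± 0.02 on average (limma adjusted p = 2.55e-05; -0.12 without L1236, 0.000242), by 0.19 ± 0.04 in KM-H2 (0.00341) and in L428 (0.00249), and by 0.15 ± 0.04 in L1236 (0.0164). The L1236 call was lost without either of its 4-OHT arrays or its second vehicle array (limma adjusted p up to 0.229). Its 3 probe sets disagreed in KM-H2, where they gave -0.185, -0.275 and 0.13, and the mean over them was not called there (-0.11, adjusted p = 0.313). They also differed in sign in UHO-1 (-0.055, 0.262 and -0.108) and SUP-HD1 (-0.045, 0.081 and -0.05), so the lower mean of EIF4B in all 5 lines holds for its brightest probe set. EIF4H, a relative of EIF4B, fell in L428 (-0.12) and L1236 (-0.13), and both calls were lost without single arrays of their own line (limma adjusted p up to 0.3 and 0.139).

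Relatives of the eIF4F subunits held the strongest rise. EIF4E3 read 11.53 and 11.38 with 4-OHT against 8.98 and 8.95 with vehicle in KM-H2, and 8.53 and 8.45 with 4-OHT against 8.20 and 8.08 with vehicle in L428. EIF4E3 in the second set read 10.26 and 10.23 with 4-OHT against 9.89 and 9.96 with vehicle in L1236, and 10.35 and 10.17 with 4-OHT against 9.86 and 9.78 with vehicle in UHO-1. EIF4E3 stood at 10.10 and 10.08 with 4-OHT against 9.92 and 10.02 with vehicle in SUP-HD1. Both 4-OHT arrays lay above both vehicle arrays in all 5 lines, by far the most in KM-H2. EIF4E3, a cap-binding relative of eIF4E, rose in KM-H2 by 2.49 ± 0.07 (limma adjusted p = 9.74e-18), which is 5.6-fold and ranked 37 among the rises of 15850 genes there. It rose by 0.44 ± 0.07 in UHO-1 (limma adjusted p = 9.34e-05), 0.35 ± 0.07 in L428 (0.00042) and 0.32 ± 0.07 in L1236 (0.00158), and its change in SUP-HD1 was 0.12 ± 0.07 (0.425). The change differed between lines (F test, limma adjusted p = 5.85e-14). Its average was 0.85 without L1236 (limma adjusted p = 1.86e-13). Without KM-H2 the average was 0.31 and the F test was at 0.0889.

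EIF4G2, which resembles eIF4G but lacks its eIF4E-binding part, rose in KM-H2 by 0.34 ± 0.05 (limma adjusted p = 1.41e-05). Its average of 0.08 ± 0.02 (0.00465) was 0.02 without KM-H2 (0.603). EIF4A3, the helicase of the exon junction complex, fell in L428 by 0.49 ± 0.06 (limma adjusted p = 1.65e-06), and its average of -0.12 ± 0.03 (0.00165) was -0.02 without L428 (0.621). EIF4ENIF1, which carries eIF4E to the nucleus and to RNA granules, fell in L428 by 0.25 ± 0.08 (0.0238), a call lost without the second 4-OHT array (0.225) or either vehicle array of L428 (0.117 and 0.0657). EIF4E2, a cap-binding repressor (-0.06 ± 0.03), and EIF4E1B (0.00 ± 0.04) were called nowhere.

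The eIF4E-binding inhibitors moved apart between lines. EIF4EBP1 fell in KM-H2 and L1236 and rose in UHO-1, and EIF4EBP2 fell in KM-H2 and was called in no other line. EIF4EBP1 stood at 8.25 and 8.34 with 4-OHT against 8.68 and 8.63 with vehicle in KM-H2, and 8.18 and 8.23 with 4-OHT against 8.38 and 8.17 with vehicle in L428. EIF4EBP1 in the second set stood at 8.11 and 7.91 with 4-OHT against 8.99 and 8.84 with vehicle in L1236, and 8.13 and 8.31 with 4-OHT against 7.65 and 7.63 with vehicle in UHO-1. EIF4EBP1 measured 9.89 and 10.00 with 4-OHT against 10.09 and 9.93 with vehicle in SUP-HD1. The 4-OHT arrays lay below both vehicle arrays in KM-H2 and L1236, above both in UHO-1, and among them in L428 and SUP-HD1. EIF4EBP1 fell in L1236 by 0.91 ± 0.09 (limma adjusted p = 8.33e-08), a 1.88-fold decrease that ranked 102 among the falls of 15850 genes. It fell in KM-H2 by 0.36 ± 0.09 (0.00515), which was not called without the first 4-OHT array (0.0645) or the first vehicle array (0.0527) of KM-H2. It rose in UHO-1 by 0.58 ± 0.09 (limma adjusted p = 7.11e-05), a 1.5-fold increase, and was -0.07 ± 0.09 in L428 (0.66) and -0.07 ± 0.09 in SUP-HD1 (0.813). The F test of the difference between lines had a limma adjusted p of 1.01e-07. Its average of -0.16 ± 0.04 (0.00233) was 0.02 without L1236 (0.721).

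EIF4EBP2 measured 10.08 and 10.15 with 4-OHT against 10.52 and 10.59 with vehicle in KM-H2, and 9.45 and 9.44 with 4-OHT against 9.49 and 9.40 with vehicle in L428. EIF4EBP2 in the second set measured 11.72 and 11.65 with 4-OHT against 11.56 and 11.59 with vehicle in L1236, and 10.86 and 11.00 with 4-OHT against 10.81 and 10.81 with vehicle in UHO-1. EIF4EBP2 gave 10.89 and 10.92 with 4-OHT against 10.96 and 10.90 with vehicle in SUP-HD1. The KM-H2 arrays with 4-OHT lay well below those with vehicle, while the L1236 and UHO-1 arrays lay slightly above and the other 2 lines overlapped. EIF4EBP2 fell in KM-H2 by 0.44 ± 0.06 (limma adjusted p = 2.45e-06). Its changes elsewhere were not called: 0.12 ± 0.06 in UHO-1 (0.128), 0.11 ± 0.06 in L1236 (0.199), 0.00 ± 0.06 in L428 (0.97) and -0.02 ± 0.06 in SUP-HD1 (0.922), and the F test was at 3.13e-05 and at 0.318 without KM-H2. The average of -0.05 ± 0.02 was not called (0.149), and was -0.09 without L1236 (0.023) or without UHO-1 (0.0145). EIF4EBP3 lies on a probe set with several symbols and is not analysed here.

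**Figure D4:**
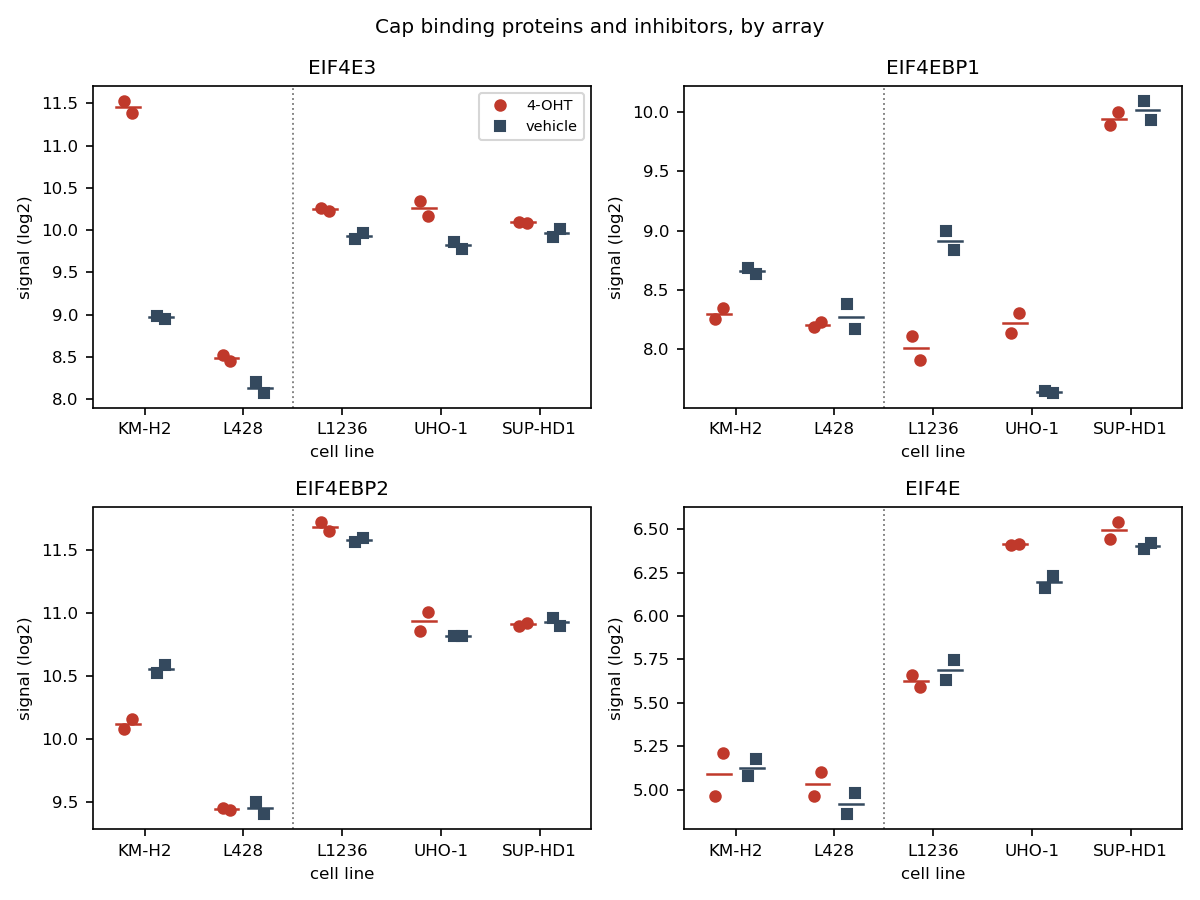
Log2 signal of EIF4E3, EIF4EBP1, EIF4EBP2 and EIF4E on each array, with 4-OHT (circles) left of vehicle (squares) in each line, group means as bars and the 2 normalization sets split by a dotted line. EIF4E3 in KM-H2 stands at 11.53 and 11.38 with 4-OHT and 8.98 and 8.95 with vehicle, and EIF4EBP1 moves down in L1236 and up in UHO-1. Axes do not start at 0.

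Of the 7 remaining members, 0 rose and 4 fell on average, with a median of -0.092. EIF5B gave 9.96 and 9.87 with 4-OHT against 10.10 and 10.15 with vehicle in KM-H2, and 10.43 and 10.53 with 4-OHT against 10.78 and 10.73 with vehicle in L428. EIF5B in the second set gave 9.86 and 9.73 with 4-OHT against 10.17 and 10.32 with vehicle in L1236, and 10.25 and 10.19 with 4-OHT against 10.27 and 10.26 with vehicle in UHO-1. EIF5B showed 10.12 and 10.15 with 4-OHT against 10.35 and 10.25 with vehicle in SUP-HD1. Both 4-OHT arrays lay below both vehicle arrays in all 5 lines, by the smallest gap in UHO-1. EIF5B, the GTPase that joins the ribosomal subunits, fell by 0.23 ± 0.03 on average (limma adjusted p = 6.16e-07), 0.45 ± 0.06 in L1236 (9.02e-06), 0.28 ± 0.06 in L428 (0.00152) and 0.21 ± 0.06 in KM-H2 (0.0153). The KM-H2 call was lost without its second 4-OHT array (0.157) or its second vehicle array (0.122). Changes in UHO-1 (-0.05 ± 0.06) and SUP-HD1 (-0.16 ± 0.06) were not called, and the F test was at 0.00982 and at 0.121 without L1236, where the average was -0.17 (4.69e-05).

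EIF6 showed 10.54 and 10.60 with 4-OHT against 10.75 and 10.76 with vehicle in KM-H2, and 10.46 and 10.41 with 4-OHT against 10.70 and 10.78 with vehicle in L428. EIF6 in the second set showed 10.94 and 10.85 with 4-OHT against 11.30 and 11.21 with vehicle in L1236, and 11.34 and 11.39 with 4-OHT against 11.50 and 11.47 with vehicle in UHO-1. EIF6 read 10.94 and 10.94 with 4-OHT against 11.07 and 11.06 with vehicle in SUP-HD1. EIF6 arrays with 4-OHT lay below both vehicle arrays in all 5 lines. EIF6, which keeps the large subunit from joining too early, fell by 0.22 ± 0.02 on average (limma adjusted p = 4.44e-08), 0.36 ± 0.05 in L1236 (8.98e-06), 0.30 ± 0.05 in L428 (5.63e-05) and 0.19 ± 0.05 in KM-H2 (0.00838). The KM-H2 call was lost without its first 4-OHT array (0.0932) or its second vehicle array (0.0565). Its changes of -0.13 ± 0.05 in UHO-1 (0.07) and -0.12 ± 0.05 in SUP-HD1 (0.192) were not called, and the F test was at 0.0227 and at 0.117 without L1236, where the average was -0.18 (3.83e-06).

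EIF2A, which can bring initiator tRNA without eIF2, fell by 0.13 ± 0.04 on average (limma adjusted p = 0.00438) and by 0.22 ± 0.08 in L428 (0.0347), the last of which was lost without either 4-OHT array or the first vehicle array of L428 (up to 0.259). EIF1AD, which shares the fold of EIF1A, fell in L428 by 0.36 ± 0.08 (0.00114), and its average of -0.09 ± 0.04 (0.0461) was lost in most alternatives. EIF5A2, a copy of the hypusine-bearing factor EIF5A, fell in L1236 by 0.33 ± 0.11 (0.0251), a call lost without the second 4-OHT array (0.366) or the second vehicle array (0.249) of L1236. EIF5A itself lies on probe sets with several symbols and is not analysed here. EIF2D, a factor for reinitiation, and EIF3J-DT, a transcript that runs away from EIF3J and is not a factor, were called in no line.

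Levels of the factors with vehicle also differed between lines. Between vehicle arrays of KM-H2 and L428, 13 factors were higher and 19 lower in KM-H2, with 54.2% of all genes called (27.3% higher, 26.9% lower). EIF3E was lower in KM-H2 by 1.05 and EIF4ENIF1 by 0.93, and EIF2D was higher by 1.29, EIF4EBP2 by 1.11 and EIF2B2 by 1.04. Between L1236 and the mean of UHO-1 and SUP-HD1, 14 were higher and 13 lower in L1236, with 59.4% of all genes called (30.8% higher, 28.6% lower). EIF3B was lower in L1236 by 0.92, and EIF4EBP2 was higher by 0.70. Between UHO-1 and SUP-HD1, 19 were higher and 10 lower in UHO-1, with 53.8% of all genes called (27.1% higher, 26.7% lower). EIF4EBP1 averaged 7.64 in UHO-1 and 10.01 in SUP-HD1, a difference of -2.37 ± 0.09 (limma adjusted p = 2.67e-16). EIF3I and EIF3A were higher in UHO-1, by 0.89 and 0.83.

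Other genes of the pathway came from lists of partners and regulators, and their counts stand beside the 17.4% of all genes that rose and the 21.2% that fell on average. Of 14 tested partners and modifiers of the factors, 3 rose and 6 fell on average. ABCE1, which recycles ribosomes, fell by 0.31 ± 0.04 (limma adjusted p = 4.36e-07) and LARP1, which holds back mRNAs of the translation machinery, by 0.21 ± 0.03 (2.59e-06). PDCD4, which inhibits eIF4A, rose by 0.41 ± 0.05 (limma adjusted p = 1.04e-06), through L428 (0.94) and UHO-1 (0.89), and was -0.24 ± 0.12 in KM-H2 (0.178).

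Of 9 genes for eIF2 kinases, phosphatase subunits and the ATF4 branch, 4 rose and 1 fell on average. EIF2AK3, the kinase PERK, rose by 0.25 ± 0.04 (limma adjusted p = 8.16e-06), PPP1R15B, which brings the phosphatase to eIF2, by 0.08 ± 0.02 (0.00572) and ATF4, a stress transcription factor, by 0.10 ± 0.03 (0.00964). Of 15 genes of mTORC1, S6 kinase and MNK signalling, 5 rose and 3 fell on average. Those that rose included SESN3 and SESN1, genes of sestrins, which restrain mTORC1. SESN3 rose by 1.27 ± 0.04 (limma adjusted p = 7.99e-18) and SESN1 by 0.96 ± 0.04 (6.34e-14), while SESN1 was at 0.00 ± 0.10 in L1236 (0.992). Values of SESN2, another sestrin gene of the list, are not given here. MKNK2, a kinase of eIF4E, fell by 0.21 ± 0.03 (7.6e-06). Of 11 genes of elongation and termination, 0 rose and 6 fell on average, among them EEF2K, the kinase of the elongation factor eEF2 (-0.28 ± 0.04, limma adjusted p = 2.01e-06), GSPT1 (-0.16 ± 0.03, 3.64e-05) and ETF1 (-0.16 ± 0.03, 0.000686), both termination factors.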

How the data were processed

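Expression in 20 samples was measured on arrays of the type Human Gene 1.0 ST (Affymetrix). The deposited values are log2 signals per probe set, made by the authors with RMA per the submitters' processing notes, and the version of that tool is not given in the sources used here. Sorted values differed by at most 0.253 between arrays within a normalization set and by at least 0.712 between sets. Probe sets were named from the platform annotation where they carry 1 symbol (19457 of 33268), and a gene with several took its brightest probe set. Genes at log2 5 or more on at least 2 arrays were kept. The 10 groups were fitted together in limma 3.58.1 (R 4.3.3) with an intensity trend, and p-values were adjusted by Benjamini-Hochberg over all 15850 genes with a threshold of 0.05. The average weights the 5 lines equally, and an F test compared the changes of the lines. The fit was also run on simulated arrays with independent noise and the same added change in every line. That run does not cover changes that differ between lines or deviations shared between arrays. Values on every array are given for EIF4E, EIF4A2, EIF4G1, EIF4EBP1 and EIF4EBP2, for the called member with the smallest p and the member with the largest average change in each complex, and for members called in a line with a change of 0.7 or more. The members, the rule and the lists were chosen with earlier results of these data known. Alternatives were the floor, the trend, the scaling, the probe set rule, a replicate block, and leaving out arrays or lines.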

Additional observations from a re-analysis of the deposited data

Results flagged for a closer look

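For 24 factors the change with 4-OHT differed between the 5 lines by the F test in limma. Among them is EIF1AY, a start-site factor whose values are not given, and for the other 23 the value is that test's adjusted p. Among eIF4F and helpers it was 0.002 for EIF4G1 and 0.012 for EIF4H. Among relatives of eIF4F it was 5.9e-14 for EIF4E3, 0.00022 for EIF4A3, 0.00061 for EIF4G2 and 0.036 for EIF4ENIF1. For the eIF4E-binding inhibitors it was 1e-07 for EIF4EBP1 and 3.1e-05 for EIF4EBP2. For eIF2 and eIF2B it was 1.4e-05 for EIF2S1, 6.3e-05 for EIF2B2, 2e-04 for EIF2B1 and 0.011 for EIF2B3. For eIF3 it was 1e-05 for EIF3B, 0.0013 for EIF3E, 0.011 for EIF3J, 0.017 for EIF3H and 0.036 for EIF3D. For the start-site factors it was 0.00012 for EIF1AX and 0.00098 for EIF5, and for the others 0.0057 for EIF1AD, 0.0098 for EIF5B, 0.023 for EIF6 and 0.023 for EIF5A2.

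Leaving out whole lines ended the call for many of these. Without KM-H2 it was lost for EIF1AD (0.0512), EIF4E3 (0.0889), EIF4EBP2 (0.318), EIF4G2 (0.196) and EIF4H (0.234). Without L428 it was lost for EIF2B1 (0.0525), EIF3D (0.252), EIF3E (0.0681), EIF3H (0.651), EIF4A3 (0.676) and EIF4ENIF1 (0.147). Without L1236, whose arrays carry T cell markers, it was lost for EIF2B3 (0.184), EIF2S1 (0.142), EIF3B (0.0552), EIF3D (0.2), EIF5A2 (0.19), EIF5B (0.121) and EIF6 (0.117). Without UHO-1 it was lost for EIF3J (0.0655), EIF5A2 (0.108), EIF5B (0.0772) and EIF6 (0.0518), and without SUP-HD1 for EIF2B3 (0.0691) and EIF4ENIF1 (0.187). EIF4EBP1, EIF2B2, EIF1AX, EIF5 and EIF4G1 passed whichever line was left out.

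Other settings ended some of these calls too. Without the intensity trend it was lost for EIF3D (0.197), EIF3H (0.111), EIF4H (0.126), EIF4ENIF1 (0.0552), EIF5B (0.0542) and EIF6 (0.133). Median centring ended it for EIF3D (0.0725) and EIF3H (0.0593), cyclic loess for EIF6 (0.232), and the replicate block for EIF3D (0.0755) and EIF5A2 (0.0564). Leaving out any of 10 single arrays ended it for EIF3D, any of 7 for EIF4ENIF1, 4 for EIF5A2, 3 for EIF3H, and 2 each for EIF5B and EIF6.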

How the results depend on the processing

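Of 562 alternative counts and medians, 549 stayed near the value reported and 13 moved. Near was a wide band: in KM-H2, counts of 8 to 14 without single arrays all passed as near the reported 12. Most single arrays left out belong to other lines, and dropping them cannot alter the size of a line's own change. This tally, and the one of single factors below, is therefore no measure of how firm the line results are. The share of all genes called was not counted under these settings, except with the 5 lines as replicates. With the 5 lines as replicates the average called 0 factors by limma, with 6 at an unadjusted p under 0.05. The L1236 count was 14 without the second 4-OHT array of L1236, and the UHO-1 count was 4 without the intensity trend, 16 after cyclic loess and 5 without either 4-OHT array or the first vehicle array of UHO-1. The F test passed 14 factors in L1236, UHO-1 and SUP-HD1 alone. The median of the eIF4E-binding inhibitors, -0.106, was -0.033 without KM-H2 or without L1236, -0.22 without UHO-1, -0.216 with only KM-H2 and L428, and -0.032 with only the other 3 lines. Leaving out single arrays gave counts of 20 to 25 on average, 14 to 23 in L1236, 13 to 18 in L428, 8 to 14 in KM-H2, 5 to 10 in UHO-1, 0 in SUP-HD1 and 20 to 25 for the F test. Of 2625 alternatives for the 15 factors described array by array, 2492 kept direction and side of the threshold, 108 lost a call, 22 gained one and 3 reversed: the average of EIF2S1 was 0.0143 without L1236 and 0.0445 in KM-H2 and L428 alone, and that of EIF4EBP1 was 0.0214 without L1236. For the other 31 factors, 135 alternatives lost a call, 53 gained one and 0 reversed. The cause was not tested. The median average change of all genes was -0.0248, -0.0348 after median centring and -0.0106 after cyclic loess.

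Replicate numbers did not pair the arrays in the same way in every line. Deviations of same-numbered arrays correlated at -0.557 in L1236, -0.0822 in KM-H2, 0.0372 in L428, 0.282 in SUP-HD1 and 0.294 in UHO-1. The replicate block follows the numbers, so it cannot take up deviations that run in opposite directions, as in L1236. With the replicate block the average called 22 factors, KM-H2 11, L428 17, L1236 20, UHO-1 8 and SUP-HD1 0, and the F test passed 22. The 2 arrays a group limit the precision, and EIF4E lay near the floor in KM-H2 and L428.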

Other observations

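EIF4E3 lies on chromosome 3 beside FOXP1, a transcription factor gene, and its neighbours were looked at after the value of EIF4E3 was seen. FOXP1 rose in all 5 lines, with 2.39 in UHO-1, 2.19 in KM-H2, 2.07 in L428, 1.88 in SUP-HD1 and 0.98 in L1236, and by 1.90 ± 0.039 on average (limma adjusted p = 2.64e-20). RYBP, a Polycomb subunit gene, rose by 0.34 ± 0.032 on average (limma adjusted p = 1.11e-08). GPR27 (-0.03, limma adjusted p = 0.607) and PROK2 (-0.05, 0.48) were not called on average, and GPR27 fell in UHO-1 (-0.44, 0.00442). MITF, a transcription factor gene, fell by 0.13 ± 0.049 (0.0409), and by 0.56 in KM-H2.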
